A study of Mus musculus with 34 samples.

Results

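The insulin receptor, PI3K and FOXO genes comprised 9 members of a count table of 14107 genes: Insr, Igf1r, Irs1, Irs2, Pik3ca, Pik3r1, Pik3ip1, Foxo1 and Foxo3. They were taken by gene symbol, through the Ensembl identifiers of the table, and all 9 were present. Their RNA was measured in 34 libraries from 3 mouse colorectal cancer cell lines, the epithelial-like NaJa-D, the intermediate NaJa-F and the mesenchymal-like NaJa-G. The cells had received either 0.5 µM encorafenib, an inhibitor of the kinase BRAF, or its solvent DMSO, and were collected on day 1 or day 5. Line, drug and day gave 12 groups of 3 libraries each, except NaJa-F with encorafenib on day 5 and NaJa-G in DMSO on day 5, which had 2. All 12 groups shared the labelled genotype VillinCreERT2::BrafV600E/+::Trp53R172H::APCdel and the strain C57BL/6N, so every control carried the same alleles as the treated cells. Each line was grown from the peritoneal lavage of 1 recipient mouse after colon organoids had been transplanted into the colon, and the Cre recombinase, driven by the epithelial Villin promoter, had been switched on in the organoids in culture. A difference between lines is therefore a difference between 3 isolates. Medium with drug or solvent was renewed on day 0, and also on day 2 and day 4 for the day 5 libraries.

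Insulin and the insulin-like growth factors bind the receptor tyrosine kinases INSR and IGF1R, which phosphorylate the adaptor proteins IRS1 and IRS2. These recruit PI3K, a lipid kinase made of a catalytic subunit such as p110α (Pik3ca) and a regulatory subunit such as p85α (Pik3r1), while PIK3IP1 is a membrane protein that inhibits PI3K. The lipid product activates AKT, which phosphorylates the transcription factors FOXO1 and FOXO3 and keeps them out of the nucleus. When the pathway is idle, nuclear FOXO can raise the RNA of receptors and adaptors of the same pathway. In colorectal cancer cells the pathway runs beside the RAS/RAF/MEK/ERK cascade, to which BRAF belongs. All values below are RNA levels. Phosphorylation, protein and the place of FOXO in the cell were not measured in these libraries.

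The libraries held 46007050 to 80121299 counted reads. Levels were scaled to counts per 1000000 reads (CPM) with TMM factors of 0.876 to 1.07, and the member with the fewest reads, Pik3ip1, had 67 to 968 reads per library. All 8 intestinal epithelial markers were in the table, with a summed level of 5150 to 9099 CPM in NaJa-D, 4405 to 7381 CPM in NaJa-F and 2574 to 5214 CPM in NaJa-G. Of the leukocyte and endothelial markers, Ptprc and Pecam1 among them, 5 of 7 and 3 of 5 were not listed in the table, and those listed summed to at most 10.2 CPM and 1.96 CPM. The 6 listed fibroblast markers summed to at most 9.11 CPM in NaJa-D and NaJa-F and to 20.2 to 137 CPM in NaJa-G. Of the 5 mesothelial markers, Wt1 and Krt5 were not listed in the table. The 3 listed, Msln, Upk3b and Lrrn4, summed to 497 to 3520 CPM. In the third NaJa-D DMSO library of day 1 the cell line label reads NaJa-G, against its title. Its log2 CPM over all genes correlated at up to 0.995 with the other NaJa-D DMSO libraries of day 1 and at up to 0.920 with those of NaJa-G, and it was kept in NaJa-D as titled.

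Pik3r1, Foxo1 and Pik3ip1 had the highest counts of encorafenib comparisons called higher, as described below. Pik3ca was the catalytic subunit gene among the members and was not called higher in any. The upstream sequences of Pik3r1, Foxo1 and Pik3ca are therefore shown. RefSeq gave promoter sequence (GRCm38.p6) for 8 of the 9 members, all but Insr, and bases 250 to 11 upstream of each start were used, 240 bases in all. The Pik3ip1 window lay entirely inside an exon of the GENCODE M21 annotation and is not shown. Bases in capitals are matches, on either strand, to the FOXO element GTAAACA, the AP-1 element TGACTCA or the ETS element GGAAGT, and all other bases are in lower case.
Pik3r1, first start, chr13:101768228-101768467, minus strand: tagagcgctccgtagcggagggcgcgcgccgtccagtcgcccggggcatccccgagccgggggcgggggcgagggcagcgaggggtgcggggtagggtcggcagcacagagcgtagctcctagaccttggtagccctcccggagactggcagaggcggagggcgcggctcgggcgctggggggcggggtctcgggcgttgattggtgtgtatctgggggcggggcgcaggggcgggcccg
Foxo1, chr3:52268087-52268326, plus strand: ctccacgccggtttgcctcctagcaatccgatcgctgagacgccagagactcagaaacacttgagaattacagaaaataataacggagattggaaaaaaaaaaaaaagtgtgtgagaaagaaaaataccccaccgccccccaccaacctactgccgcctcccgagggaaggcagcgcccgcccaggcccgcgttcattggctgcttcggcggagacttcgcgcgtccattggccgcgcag
Pik3ca, chr3:32396815-32397054, plus strand: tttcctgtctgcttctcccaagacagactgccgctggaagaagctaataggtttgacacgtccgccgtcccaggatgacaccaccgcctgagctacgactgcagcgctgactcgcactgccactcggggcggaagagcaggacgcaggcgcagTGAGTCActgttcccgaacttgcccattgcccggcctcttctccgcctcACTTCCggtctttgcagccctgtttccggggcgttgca
Over all 32851 promoter windows of this length, 3.06% held the FOXO element, 4.35% the AP-1 element and 18.7% the ETS element. Among the members only Pik3ca held any of them, an AP-1 element that began 97 bases upstream of the start and an ETS element that began 48 bases upstream, both read on the opposite strand. No element overlapped another. The windows of Pik3r1 (both annotated starts), Pik3ip1, Foxo1, Foxo3, Irs1, Irs2 and Igf1r did not contain these letters. GC content was 76.2% at the first Pik3r1 start, 55.8% at Foxo1 and 61.2% at Pik3ca.

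In the GENCODE M21 annotation of GRCm38 the members are protein-coding genes. The receptors and adaptors are Insr at chr8:3122061-3279617 (minus strand), Igf1r at chr7:67952827-68233668 (plus strand), Irs1 at chr1:82233101-82291416 (minus strand) and Irs2 at chr8:10984681-11008458 (minus strand). The PI3K genes are Pik3ca at chr3:32397671-32468486 (plus strand), Pik3r1 at chr13:101680563-101768217 (minus strand) and Pik3ip1 at chr11:3330401-3342971 (plus strand), and the transcription factors are Foxo1 at chr3:52268336-52353221 (plus strand) and Foxo3 at chr10:42181841-42276755 (minus strand). Compared per kilobase of exon, the RNA of Pik3ca was the most abundant, with a median of 9.15 FPKM over the 34 libraries (range 5.94 to 12.6). Irs1 followed at 8.44 FPKM (4.62 to 15.0), Foxo3 at 7.29 FPKM (3.98 to 9.80), Insr at 5.26 FPKM (3.08 to 6.68) and Igf1r at 4.78 FPKM (3.04 to 9.15). Irs2 at 3.37 FPKM, Foxo1 at 3.31 FPKM and Pik3r1 at 3.18 FPKM lay close together, and their ranges over libraries overlapped widely. The inhibitor Pik3ip1 was lowest, at 0.994 FPKM (0.368 to 3.13), and also spanned the widest relative range. The levels of every member in every library are shown in the plot of CPM by library, where the gap between the NaJa-G controls of day 1 and the treated cells is visible for Pik3ip1, Pik3r1, Irs1, Irs2 and Foxo3.

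**Figure D1:**
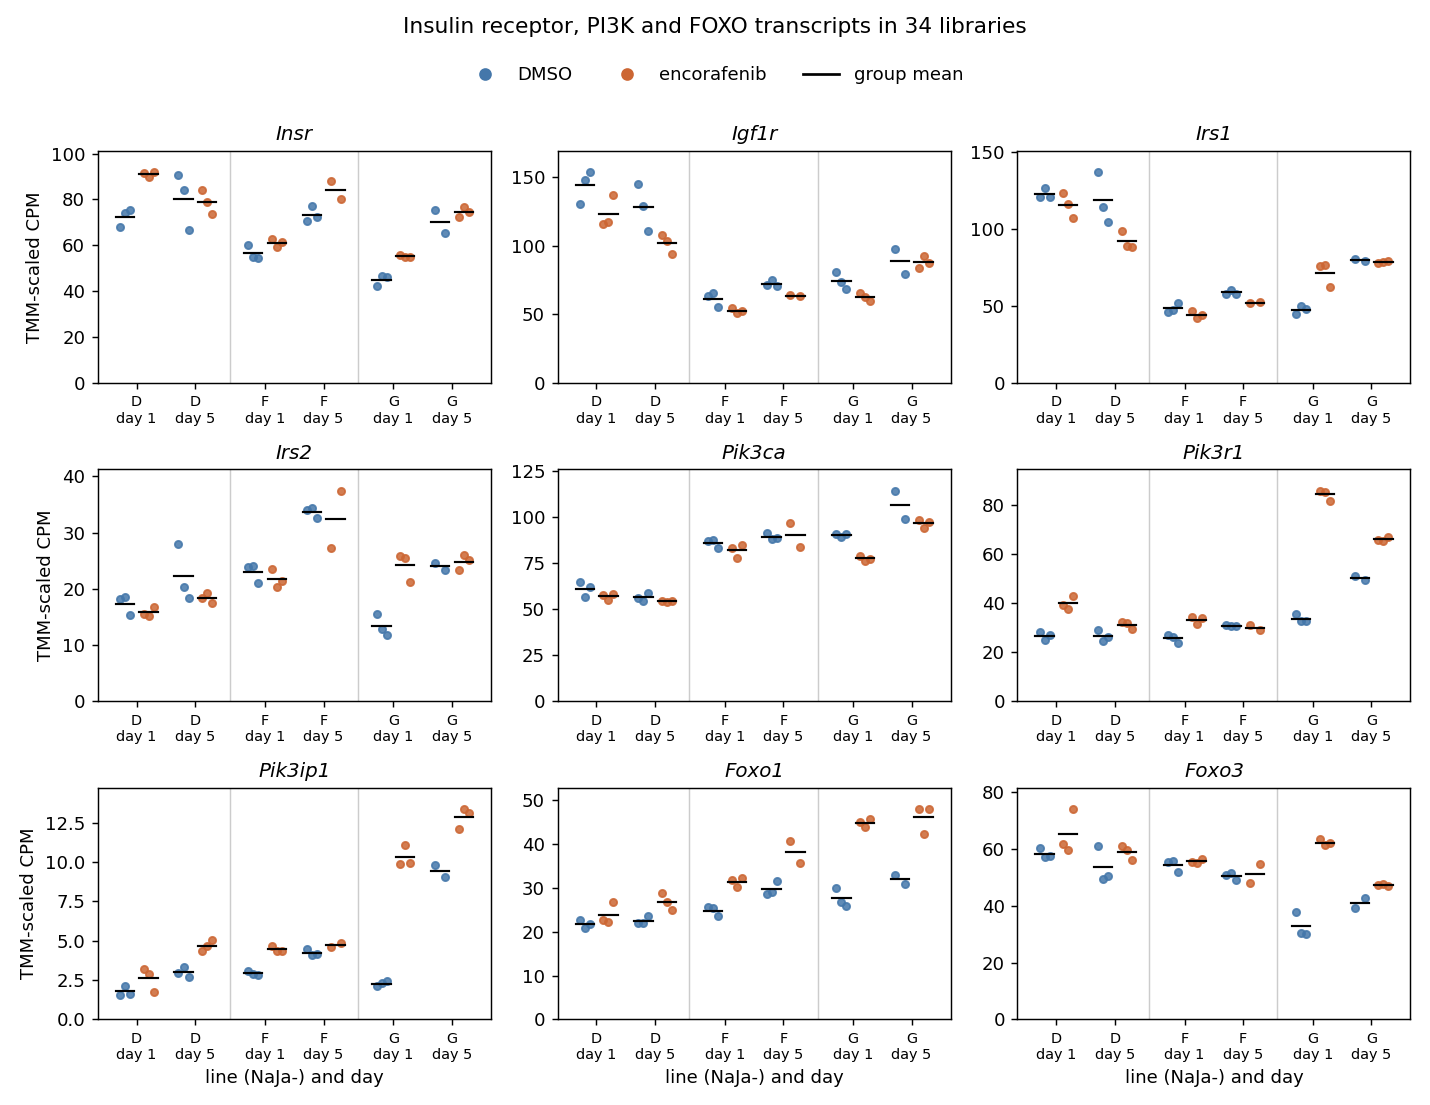
Level of each member (TMM-scaled CPM, linear axis from 0) in the 34 libraries, grouped by line and day. Points are libraries, blue for DMSO and orange for encorafenib, and black bars are group means. In NaJa-G on day 1, Pik3ip1 libraries sit at 2.09 to 2.43 CPM in DMSO and at 9.84 to 11.1 CPM with encorafenib, and the day 5 DMSO libraries lie at 9.06 to 9.78 CPM.

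The first comparison asked what encorafenib did to these genes in each line and on each day. The response was broadest in NaJa-G on day 1, where 7 members were higher and 1 lower than in DMSO, and only Igf1r was not called. The negative regulator Pik3ip1 rose most, followed by the regulatory subunit Pik3r1, the transcription factor Foxo3, the adaptor Irs2, Foxo1, the adaptor Irs1 and Insr, and the catalytic subunit Pik3ca fell. By day 5 only Pik3r1, Pik3ip1 and Foxo1 were still higher than in DMSO of the same day. In NaJa-D and NaJa-F fewer members passed the test. A gene was called where its two-sided limma-voom test over all 14107 genes gave an adjusted p (Benjamini-Hochberg) below 0.01, and since nothing states that replicates came from separate cultures, the p-values measure the spread between these libraries, which may be technical.

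These counts have to be read against a drug response that reached much of the transcriptome, and the members were chosen with earlier results of these data known. On day 1 in NaJa-G, 35.3% of all genes were called higher and 28.7% lower, and on day 5 28.5% and 24.7%. In NaJa-D 2 members were higher and none lower on day 1, where 23.7% and 21.2% of all genes were called, and 3 were higher and 2 lower on day 5, where 18.3% and 14.7% were. In NaJa-F 3 members were higher on day 1, with 17.5% of all genes higher and 12% lower, and 1 was higher on day 5, with 9.7% and 8.5%. In both directions together, the share of members called was above that of all genes in NaJa-G on day 1 (88.9% against 64%) and in NaJa-D on day 5 (55.6% against 33%), and near it in NaJa-F on day 1 (33.3% against 29.5%). It was below that of all genes in NaJa-D on day 1 (22.2% against 44.9%), in NaJa-F on day 5 (11.1% against 18.2%) and in NaJa-G on day 5 (33.3% against 53.2%). The median log2 fold change of the 9 members in NaJa-G on day 1 was 0.70, against 0.04 for all genes. In the other 5 comparisons the median of the members lay between -0.02 and 0.12. As the RNA was taken from bulk cultures, fewer cells of one kind and less RNA per cell cannot be told apart. In NaJa-G the summed fibroblast markers were also higher with encorafenib, at 57.6 to 78.0 CPM in DMSO and 95.6 to 112 CPM with encorafenib on day 1, and at 20.2 to 22.9 CPM and 121 to 137 CPM on day 5. The mesothelial list, the sum of Msln, Upk3b and Lrrn4, was higher with encorafenib in every line and on both days. On day 1 its sum went from 558 to 724 CPM in DMSO to 1328 to 1523 CPM in NaJa-G, from 1236 to 1514 CPM to 2604 to 3520 CPM in NaJa-D and from 743 to 984.7 CPM to 1104 to 1176 CPM in NaJa-F. On day 5 it went from 497 to 565 CPM to 1535 to 1744 CPM in NaJa-G, from 1225 to 1454 CPM to 2214 to 2859 CPM in NaJa-D and from 660 to 712 CPM to 1002 to 1031 CPM in NaJa-F. The epithelial list was also higher with the drug in every line and on both days, in NaJa-G at 3281 to 4096 CPM and 5060 to 5214 CPM on day 1 and at 2574 to 3091 CPM and 3102 to 3298 CPM on day 5. The study reports that host cells disappeared from the lines over passages, judged by loss of the wild-type Apc product in PCR. The part of these marker lists in the result was not tested.

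**Figure D2:**
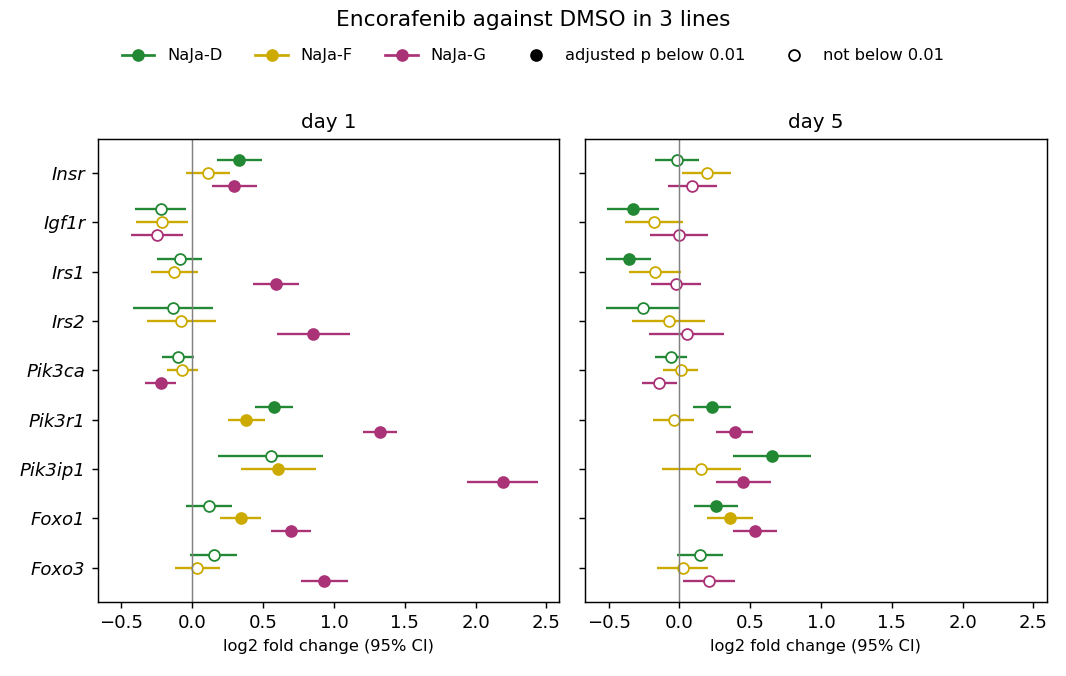
Log2 fold change of encorafenib against DMSO with its 95% confidence interval for the 9 members, on day 1 (left) and day 5 (right), in NaJa-D (green), NaJa-F (yellow) and NaJa-G (purple). Filled points passed an adjusted p below 0.01. On day 1 the NaJa-G points of Irs1, Irs2, Pik3r1, Pik3ip1, Foxo1 and Foxo3 lie to the right of the other lines. On day 5 they lie closer to the other lines, while for Pik3ip1 NaJa-F and NaJa-D lie further apart than on day 1.

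Of the receptors, Insr rose with encorafenib on day 1 in NaJa-D and in NaJa-G. In NaJa-D its level was 68.1, 74.0 and 75.2 CPM in DMSO and 91.6, 89.7 and 91.9 CPM with encorafenib, a log2 fold change of 0.33 ± 0.08 (SE, limma adjusted p = 0.000596). In NaJa-G it was 42.3, 46.7 and 46.1 CPM in DMSO and 55.8, 55.0 and 55.0 CPM with encorafenib, a log2 fold change of 0.30 ± 0.08 (limma adjusted p = 0.00121). The groups did not overlap in either line. Both calls were lost without the lowest DMSO library, replicate 1 of the line, with log2 fold changes of 0.26 in NaJa-D and 0.25 in NaJa-G (adjusted p = 0.0113 and 0.0106). On day 5 Insr was not called in any line, and its log2 fold changes were -0.02 for NaJa-D, 0.19 for NaJa-F and 0.09 for NaJa-G.

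Igf1r, the receptor for the insulin-like growth factors, did not follow Insr. Its log2 fold change on day 1 was -0.22 for NaJa-D, -0.21 for NaJa-F and -0.25 for NaJa-G, none of them called (limma adjusted p = 0.034, 0.0593 and 0.0154). On day 5 it fell in NaJa-D, from 145, 129 and 111 CPM in DMSO to 108, 103 and 94.2 CPM, by 0.33 on the log2 scale (SE 0.09, limma adjusted p = 0.00347). The groups did not overlap, but the highest treated library lay just under the lowest control. That call was lost without DMSO replicate 1 (-0.24, adjusted p = 0.0456), DMSO replicate 2 (-0.32, adjusted p = 0.0129) or encorafenib replicate 3 (-0.28, adjusted p = 0.029). In NaJa-G on day 1 leaving out DMSO replicate 3 made the Igf1r call (-0.31, adjusted p = 0.00799), and so did fitting only the groups compared (-0.30, adjusted p = 0.00554). In NaJa-D on day 1 it was called without DMSO replicate 1 (-0.32, adjusted p = 0.00676) or encorafenib replicate 3 (-0.33, adjusted p = 0.00261).

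The adaptors Irs1 and Irs2 responded in NaJa-G on day 1. Irs1 stood at 44.8, 49.7 and 47.8 CPM in DMSO and at 75.6, 76.7 and 62.2 CPM with encorafenib, which is 1.51-fold (log2 fold change 0.59 ± 0.08, limma adjusted p = 1.25e-07). Irs2 stood at 15.5, 12.9 and 11.8 CPM in DMSO and at 25.9, 25.4 and 21.3 CPM with encorafenib, which is 1.81-fold (0.85 ± 0.13, limma adjusted p = 7.19e-07). For both adaptors every treated library lay above every control, with encorafenib replicate 3 the lowest of its group. Irs1 moved the other way in NaJa-D on day 5, from 137, 114 and 105 CPM to 98.9, 88.8 and 88.1 CPM, and fell by 0.36 on the log2 scale (SE 0.08, limma adjusted p = 0.000367). Irs2 was called in no other comparison with the drug, and its log2 fold changes there lay between -0.26 and 0.05.

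Among the members, the RNA of the regulatory subunit gene Pik3r1 and of the catalytic subunit gene Pik3ca diverged. Other catalytic subunit genes are described with the pathway lists below. Pik3r1, which encodes p85α, rose in 5 of the 6 comparisons. In NaJa-G on day 1 it stood at 35.5, 32.7 and 32.5 CPM in DMSO and at 85.8, 85.3 and 81.7 CPM with encorafenib, 2.51-fold higher (log2 fold change 1.33 ± 0.06, limma adjusted p = 8.25e-18). The treated libraries were the 3 highest of the series for this gene. In NaJa-D on day 1 it went from 28.0, 25.1 and 27.0 CPM to 39.3, 37.7 and 43.0 CPM (0.58 ± 0.07, limma adjusted p = 2e-08). In NaJa-F on day 1 it went from 27.0, 26.1 and 23.5 CPM to 34.4, 31.6 and 33.8 CPM (0.38 ± 0.06, limma adjusted p = 1.37e-05). Neither pair of groups overlapped. On day 5 the difference in NaJa-G was 0.39 ± 0.06 (limma adjusted p = 5.6e-06), with 51.2 and 49.4 CPM in DMSO and 65.5, 65.3 and 66.9 CPM with encorafenib. In NaJa-D on day 5 it was 0.23 ± 0.06 (limma adjusted p = 0.00437), a call lost without DMSO replicate 2 or 3 or encorafenib replicate 1 or 2 (0.18 to 0.22, adjusted p = 0.0184 to 0.0402) and when only these groups were fitted (adjusted p = 0.0258). NaJa-F on day 5 was the exception, with 31.1, 30.5 and 30.5 CPM in DMSO, 31.0 and 28.8 CPM with encorafenib and a log2 fold change of -0.04 (95% interval -0.18 to 0.11).

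Pik3ca, which encodes the catalytic p110α, fell in NaJa-G on day 1, from 91.1, 89.3 and 90.9 CPM to 79.2, 76.0 and 77.4 CPM. The groups did not overlap, and the fall was 0.22 on the log2 scale (SE 0.05, limma adjusted p = 0.000494). Elsewhere its log2 fold changes with the drug lay between -0.14 and 0.01 and were not called. In NaJa-G on day 5 it was -0.14 (limma adjusted p = 0.0397), and without DMSO replicate 3 of that day, the lower of the 2 controls, it was -0.25 and called (adjusted p = 0.00322).

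Pik3ip1, the PI3K inhibitor, had the largest response of the members. In NaJa-G on day 1 its level was 2.09, 2.29 and 2.43 CPM in DMSO and 9.84, 11.1 and 9.95 CPM with encorafenib, 4.57-fold higher (log2 fold change 2.19 ± 0.12, limma adjusted p = 2.31e-15). Every treated library lay far above every control. In NaJa-F on day 1 it went from 3.05, 2.89 and 2.81 CPM to 4.64, 4.33 and 4.35 CPM (0.61 ± 0.13, limma adjusted p = 0.000387). On day 5 it rose in NaJa-D, from 2.95, 3.33 and 2.71 CPM to 4.32, 4.68 and 5.05 CPM (0.65 ± 0.14, limma adjusted p = 0.000238). On the same day it rose in NaJa-G, from 9.78 and 9.06 CPM to 12.1, 13.4 and 13.1 CPM (0.45 ± 0.09, limma adjusted p = 0.000146). No pair of these groups overlapped. In NaJa-D on day 1 the libraries overlapped, at 1.57, 2.13 and 1.63 CPM in DMSO and 3.22, 2.91 and 1.75 CPM with encorafenib, and the log2 fold change of 0.56 ± 0.18 missed the threshold (limma adjusted p = 0.0105). Encorafenib replicate 3 was the low library there, and without it the value was 0.77 (adjusted p = 5.37e-05). Without DMSO replicate 2 it was 0.69 (adjusted p = 0.00704), and edgeR and DESeq2 called it with all libraries (adjusted p = 0.00186 and 0.000636). In NaJa-F on day 5 it was 4.47, 4.06 and 4.17 CPM in DMSO and 4.6 and 4.82 CPM with encorafenib (0.15 ± 0.14, limma adjusted p = 0.44). Exons of Pik3ip1 and of Gm12592, a gene on the opposite strand, share 91 bases, and the sources used here do not say whether reads were counted by strand. Gm12592 stood at 0.315 to 1.34 CPM over all libraries and did not pass the test in NaJa-G on day 1 (log2 fold change 0.11, limma adjusted p = 0.769). Exons of Irs1, Irs2 and Foxo1 overlap opposite-strand genes by 2822, 162 and 674 bases, and those genes were not listed in the table.

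Of the transcription factors, Foxo1 rose in 5 comparisons and was the only member higher on day 5 in all 3 lines. In NaJa-G it stood at 30.0, 26.9 and 25.9 CPM in DMSO and 45.1, 43.8 and 45.7 CPM with encorafenib on day 1 (log2 fold change 0.70 ± 0.07, limma adjusted p = 4.01e-10). On day 5 it stood at 33 and 30.9 CPM against 48.0, 42.4 and 48.1 CPM (0.53 ± 0.08, limma adjusted p = 7.39e-07). The treated NaJa-G libraries of both days lay above all other libraries of the series. In NaJa-F it went from 25.6, 25.4 and 23.6 CPM to 31.8, 30.2 and 32.2 CPM on day 1 (0.34 ± 0.07, limma adjusted p = 0.000326). On day 5 in NaJa-F it went from 28.6, 29.1 and 31.6 CPM to 40.8 and 35.7 CPM (0.36 ± 0.08, limma adjusted p = 0.000792). Without encorafenib replicate 1, the higher of these 2 libraries, the day 5 value was 0.25 and not called (adjusted p = 0.0561). In NaJa-D it was called on day 5 (0.26 ± 0.08, limma adjusted p = 0.00711), from 21.9, 22.0 and 23.5 CPM to 28.7, 26.9 and 24.9 CPM. That call was lost without replicate 1 or 2 of either arm (0.21 to 0.25, adjusted p = 0.0211 to 0.0481), with RLE scaling (adjusted p = 0.0103) and when only these groups were fitted (adjusted p = 0.0127). On day 1 NaJa-D gave 0.12 ± 0.08 (limma adjusted p = 0.205).

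Foxo3 rose only in NaJa-G on day 1 among the 6 comparisons. Its level was 37.7, 30.3 and 30.1 CPM in DMSO and 63.6, 61.3 and 62.0 CPM with encorafenib, 1.91-fold higher (log2 fold change 0.93 ± 0.08, limma adjusted p = 2.9e-11). The DMSO group was the lowest of all 12, and the treated libraries lay in the range of NaJa-D, 49.4 to 74.2 CPM. On day 5 in NaJa-G it was 39.1 and 42.9 CPM in DMSO and 47.5, 47.6 and 47.0 CPM with encorafenib (0.21 ± 0.09, limma adjusted p = 0.0453). In NaJa-D and NaJa-F its log2 fold changes lay between 0.02 and 0.15. No member was called in the same direction in all 6 comparisons, while 5.08% of all genes were higher and 3.07% lower in all 6.

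The second comparison asked whether these responses differed between lines, by testing the difference of the 2 fold changes. On day 1, 6 members responded differently in NaJa-G than in NaJa-D, and the same number in NaJa-G than in NaJa-F, both times Irs1, Irs2, Pik3r1, Pik3ip1, Foxo1 and Foxo3. All 6 were more positive in NaJa-G. Against NaJa-D the log2 differences ran from 0.58 for Foxo1 to 1.64 for Pik3ip1 (limma adjusted p = 5.01e-05 and 6.46e-07). Against NaJa-F they ran from 0.36 for Foxo1 to 1.59 for Pik3ip1 (limma adjusted p = 0.00399 and 3.14e-08). Both comparisons use the same NaJa-G libraries. Over all genes, 36.4% and 33.5% were called in these comparisons in either direction, beside 66.7% of the members in both. As the members were chosen with earlier results of these data known, no conclusion about them is drawn from this excess. Insr, Igf1r and Pik3ca were not called, with differences of -0.03, -0.02 and -0.12 against NaJa-D and of 0.18, -0.03 and -0.15 against NaJa-F. NaJa-F and NaJa-D were not distinguished by any member on day 1, with log2 differences between -0.22 and 0.22, where 8.79% of all genes were called. That count of 0 was the same with edgeR and DESeq2, and 2 members had an unadjusted p below 0.05 in limma. The Foxo1 difference between NaJa-G and NaJa-F was the least firm of the 12. It was lost without NaJa-F DMSO replicate 1 or 2, NaJa-F encorafenib replicate 2 or NaJa-G DMSO replicate 2 or 3 (0.32 to 0.34, adjusted p = 0.0115 to 0.015).

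On day 5 the response of NaJa-G was closer to those of the other lines. Its median absolute log2 difference over the members was 0.20 from NaJa-D and 0.17 from NaJa-F, after 0.68 and 0.72 on day 1. Between NaJa-F and NaJa-D the same median was 0.061 on day 1 and 0.18 on day 5. The response of Pik3r1 was 0.43 ± 0.10 more positive on the log2 scale in NaJa-G than in NaJa-F (limma adjusted p = 0.000699), and it was the only member called of that pair, where 24.2% of all genes were. Between NaJa-G and NaJa-D no member was called, against 21.9% of all genes, and the log2 differences lay between -0.20 for Pik3ip1 and 0.33 for Irs1. Between NaJa-F and NaJa-D none was called, against 8.85% of all genes, with log2 differences from -0.50 for Pik3ip1 and -0.27 for Pik3r1 (limma adjusted p = 0.0779 and 0.0531) to 0.21 for Insr. edgeR and DESeq2 also called none in either pair, and 3 and 2 members had an unadjusted p below 0.05 in limma. For Irs1 and Foxo1 the difference of NaJa-G and NaJa-D was not called (limma adjusted p = 0.0277 and 0.0481), with 95% intervals of 0.09 to 0.57 and 0.06 to 0.50.

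The third comparison followed the solvent controls from day 1 to day 5, as background for the day 5 results. In NaJa-G 7 members rose in DMSO alone, and the largest rise was again that of Pik3ip1, from 2.09, 2.29 and 2.43 CPM to 9.78 and 9.06 CPM (log2 fold change 2.05 ± 0.13, limma adjusted p = 7.68e-13). Irs1 rose from 44.8, 49.7 and 47.8 CPM to 80.6 and 79.3 CPM (0.76 ± 0.09, limma adjusted p = 6.14e-08). Irs2 rose from 15.5, 12.9 and 11.8 CPM to 24.6 and 23.4 CPM (0.84 ± 0.14, limma adjusted p = 1.55e-05). In all 3 the day 5 control libraries lay close to the encorafenib libraries of day 1. Insr rose by 0.64 ± 0.09 (limma adjusted p = 7.67e-07) and Pik3r1 by 0.58 ± 0.07 (limma adjusted p = 4.08e-08), and the day 5 controls of Pik3r1, at 51.2 and 49.4 CPM, stayed well under the 81.7 to 85.8 CPM of the day 1 treated libraries. Foxo3 rose by 0.33 ± 0.09 (limma adjusted p = 0.00423) and Pik3ca by 0.24 ± 0.06 (limma adjusted p = 0.00175). The Foxo3 call was lost without DMSO replicate 2 or 3 of day 1 or replicate 3 of day 5 (0.26 to 0.28, adjusted p = 0.0245 to 0.0703), and that of Pik3ca without replicate 1 of day 5 (0.13, adjusted p = 0.139). Over all genes 17.2% rose and 16.8% fell in these controls.

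In NaJa-F 6 members rose in DMSO from day 1 to day 5 and none fell, where 9.73% of all genes rose and 7.01% fell. Irs2 rose from 23.8, 24.0 and 21.0 CPM to 34.1, 34.4 and 32.6 CPM (0.56 ± 0.11, limma adjusted p = 0.000547) and Insr from 60.0, 55.1 and 54.6 CPM to 70.8, 77.0 and 72.3 CPM (0.38 ± 0.08, limma adjusted p = 0.000504). The groups did not overlap for either gene. Pik3ip1 rose by 0.54, Irs1 by 0.28, Pik3r1 by 0.27 and Foxo1 by 0.26. These last 4 calls were not firm. Foxo1 was lost without any 1 of the 6 libraries (0.20 to 0.28, adjusted p = 0.0135 to 0.0747). Irs1 was lost without any of them but day 1 replicate 3 (0.24 to 0.27, adjusted p = 0.0295 to 0.0567). Pik3ip1 was lost without replicate 1 or 3 of day 5 or replicate 2 or 3 of day 1 (0.48 to 0.53, adjusted p = 0.0112 to 0.0206). Pik3r1 was lost without any day 5 library or replicate 3 of day 1 (0.21 to 0.25, adjusted p = 0.0113 to 0.0216). In NaJa-D 1 member rose and none fell, against 13.7% and 15.3% of all genes. This was Pik3ip1, from 1.57, 2.13 and 1.63 CPM to 2.95, 3.33 and 2.71 CPM (0.75 ± 0.18, limma adjusted p = 0.00127), and the call was lost without replicate 1 of day 1 (0.65, adjusted p = 0.0139). Pik3ip1 was thus higher on day 5 than on day 1 in the controls of all 3 lines.

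**Figure D3:**
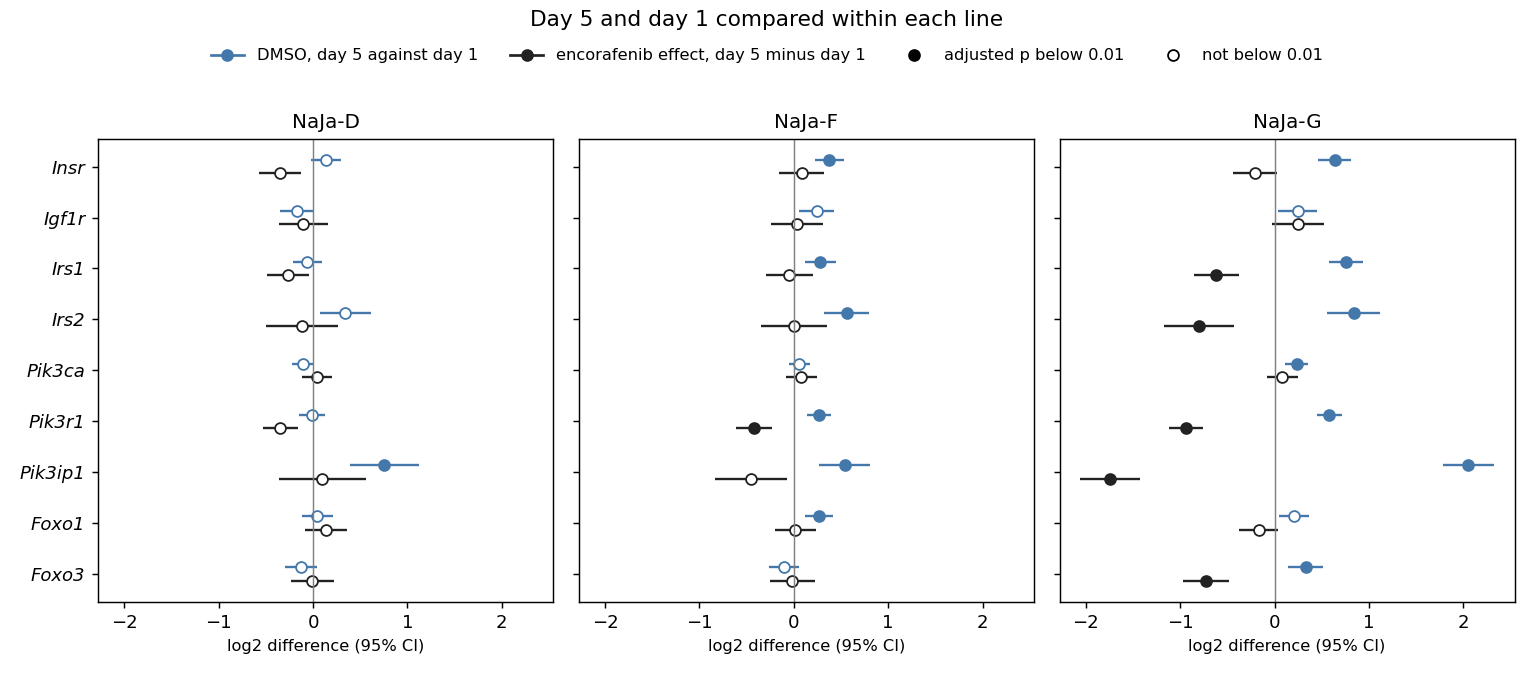
Change of each member from day 1 to day 5 in DMSO (blue) and the encorafenib effect on day 5 minus that on day 1 (black), as log2 differences with 95% confidence intervals, in the 3 lines. Filled points passed an adjusted p below 0.01. In NaJa-G the 2 measures point in opposite directions for Irs1, Irs2, Pik3r1, Pik3ip1 and Foxo3. They share the DMSO libraries of both days, so part of this mirror image is arithmetic.

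The encorafenib effect itself was compared between the days. In NaJa-G it was smaller on day 5 for 5 members, where 31.7% of all genes were called. The difference was -1.74 ± 0.16 on the log2 scale for Pik3ip1 (limma adjusted p = 4.17e-10), -0.94 ± 0.09 for Pik3r1 (adjusted p = 8.09e-10) and -0.80 ± 0.18 for Irs2 (adjusted p = 0.000672). It was -0.73 ± 0.12 for Foxo3 (limma adjusted p = 1.79e-05) and -0.62 ± 0.12 for Irs1 (adjusted p = 9.33e-05). The treated libraries moved less than this difference for Pik3ip1, Irs1 and Irs2: Pik3ip1 was at 9.84 to 11.1 CPM on day 1 and 12.1 to 13.4 CPM on day 5 with encorafenib, Irs1 at 62.2 to 76.7 CPM and 77.6 to 79.1 CPM, and Irs2 at 21.3 to 25.9 CPM and 23.3 to 26.1 CPM. For Pik3r1 and Foxo3 the treated level itself was lower on day 5, at 65.3 to 66.9 CPM after 81.7 to 85.8 CPM and at 47.0 to 47.6 CPM after 61.3 to 63.6 CPM. The difference for Foxo1 was -0.17 (limma adjusted p = 0.187), and for Insr, Igf1r and Pik3ca it was -0.21, 0.25 and 0.08, not called. In NaJa-F only Pik3r1 differed between the days (-0.42 ± 0.09, limma adjusted p = 0.00281), against 5.88% of all genes, and the call was lost without encorafenib replicate 2 of day 5 (-0.38, adjusted p = 0.0238) or DMSO replicate 3 of day 1 (-0.37, adjusted p = 0.0133). In NaJa-D no member was called by limma, against 7.29% of all genes. There 3 members had an unadjusted p below 0.05, and edgeR and DESeq2 each called 1.

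The fourth comparison was of the DMSO libraries of the lines, averaging the day 1 and day 5 means of each. NaJa-D stood apart by its higher RNA of the receptor Igf1r and the adaptor Irs1. Igf1r was at 111 to 154 CPM in its 6 DMSO libraries, with a median of 138 CPM, at 55.2 to 75.2 CPM in NaJa-F, with a median of 68 CPM, and at 80.9, 74.0 and 68.6 CPM on day 1 and 97.7 and 79.6 CPM on day 5 in NaJa-G. NaJa-D did not overlap with the other lines, and relative to it the log2 fold change was -1.03 ± 0.06 in NaJa-F (limma adjusted p = 1.94e-14) and -0.74 ± 0.07 for the NaJa-G controls (limma adjusted p = 5.25e-11). Irs1 was at 105 to 137 CPM in NaJa-D, with a median of 121 CPM, at 46 to 60.6 CPM in NaJa-F, with a median of 54.8 CPM, and at 44.8 to 80.6 CPM in NaJa-G, given by library above. Relative to NaJa-D it stood at -1.17 ± 0.06 on the log2 scale in NaJa-F (limma adjusted p = 4.13e-17) and at -0.97 ± 0.06 for the NaJa-G controls (limma adjusted p = 6.87e-15). The other genes ran differently. Insr was lower than in NaJa-D by 0.24 in NaJa-F (limma adjusted p = 0.000297) and by 0.44 in NaJa-G (limma adjusted p = 9.08e-08), and its libraries overlapped. Scaled by library size alone, the Insr difference of NaJa-F was -0.12 and not called (adjusted p = 0.0611).

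Downstream of the receptors the order of the lines turned. Pik3ca was at 54.6 to 64.5 CPM in NaJa-D, with a median of 57.9 CPM, at 83.3 to 91.4 CPM in NaJa-F, with a median of 88 CPM, and at 91.1, 89.3 and 90.9 CPM on day 1 and 114 and 99.2 CPM on day 5 in NaJa-G. It was higher than in NaJa-D by 0.58 ± 0.04 in NaJa-F (limma adjusted p = 9.91e-14) and by 0.74 ± 0.04 in NaJa-G (limma adjusted p = 7.23e-16), with no overlap. Pik3r1 in NaJa-G exceeded NaJa-D by 0.63 ± 0.05 (limma adjusted p = 1.09e-12) and NaJa-F by 0.55 ± 0.05 (limma adjusted p = 1.24e-11), while NaJa-F and NaJa-D were not told apart (0.07, 95% interval -0.02 to 0.17). Pik3ip1 was higher than in NaJa-D by 0.62 in NaJa-F and by 1.01 in NaJa-G (limma adjusted p = 1.58e-05 and 3.01e-09). Its libraries in both lines overlapped with NaJa-D, and those of NaJa-G fell into the 2 days given above. Foxo1 was higher than in NaJa-D by 0.30 in NaJa-F and by 0.42 in NaJa-G (limma adjusted p = 2.19e-05 and 1.13e-07). Foxo3 ran the other way, and NaJa-G was lower than NaJa-D by 0.61 ± 0.06 (limma adjusted p = 4.77e-10) and lower than NaJa-F by 0.52 ± 0.06 (limma adjusted p = 1.58e-08), with 30.1 to 42.9 CPM in NaJa-G and 49.1 CPM or more in both other lines. Irs2 was highest in NaJa-F, by 0.51 over NaJa-D and by 0.63 over NaJa-G (limma adjusted p = 8.94e-06 and 4.86e-07), but its NaJa-F libraries overlapped with both other lines. For Irs2, NaJa-G and NaJa-D were not told apart (-0.12, limma adjusted p = 0.247).

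**Figure D4:**
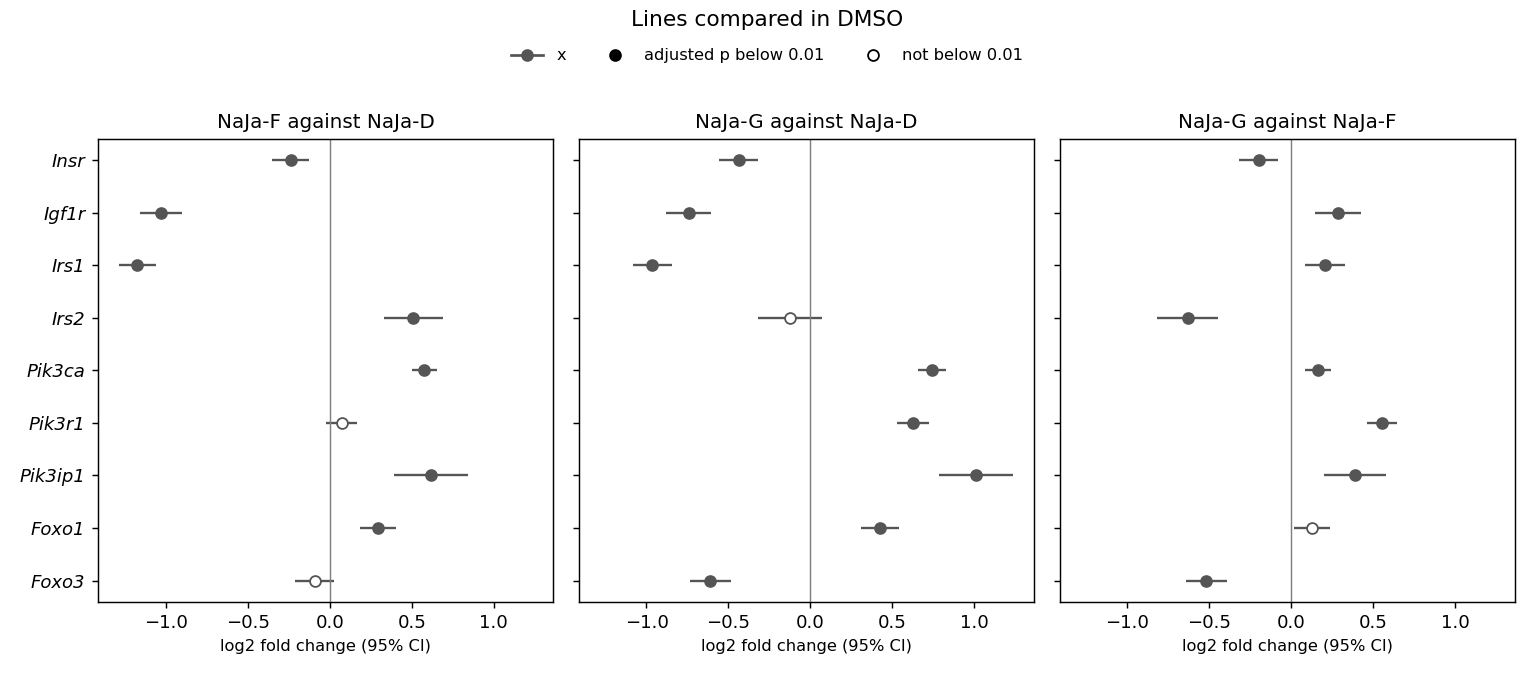
Log2 fold change between lines in DMSO, averaged over day 1 and day 5, with 95% confidence intervals. Filled points passed an adjusted p below 0.01. Igf1r and Irs1 lie left of 0 in both comparisons with NaJa-D, Pik3ca and Foxo1 lie right of 0, and Foxo3 is low in NaJa-G only.

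In these line comparisons 4 members were higher and 3 lower in NaJa-F than in NaJa-D, where 32.6% and 29% of all genes were called. In NaJa-G against NaJa-D 4 were higher and 4 lower, beside 33.3% and 34.1%, and in NaJa-G against NaJa-F 5 were higher and 3 lower, beside 25.2% and 29.2%. So much of the transcriptome differed between the lines that these counts say little about the members as a group. Smaller calls of NaJa-G against NaJa-F depended on single libraries. Without NaJa-G DMSO replicate 1 of day 5, Igf1r (0.21, adjusted p = 0.0146), Irs1 (0.20, adjusted p = 0.0128) and Pik3ca (0.11, adjusted p = 0.0239) were no longer called. Insr was lost without NaJa-G replicate 1 of day 1 or 3 of day 5, or NaJa-F replicate 1 of day 1 or 2 of day 5 (-0.18 to -0.15, adjusted p = 0.0122 to 0.0513).

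Over the 12 group means of log2 CPM, the receptor Igf1r and the adaptor Irs1 were the most alike pair of members, with a Pearson r of 0.93. The receptors Insr and Igf1r had 0.55. Pik3ip1 had 0.87 with Foxo1 and 0.81 with Pik3r1, and Pik3r1 had 0.34 with Pik3ca. Irs1 and Pik3ca were the most opposed, at -0.69. These values describe 12 points that share lines and libraries, and no test was made of them. Among all genes the patterns most like Pik3ip1 were those of Ifnar1, a subunit of the type I interferon receptor (0.97), and Sesn3, a sestrin that is a known FOXO target (0.96). For Pik3r1 they were Camk1d (0.99) and Srr (0.98), for Foxo1 Wwtr1, which encodes TAZ (0.96), and Mtss1 (0.96), and for Foxo3 Trappc12 (0.96) and Tmem63a (0.95). For Igf1r they were Pcsk6 (0.97) and M6pr (0.97), for Irs1 Tet3 (0.96) and Zfp12 (0.96), for Pik3ca Armcx4 (0.99) and Sec24b (0.98), for Insr 9430091E24Rik (0.94) and Dgkh (0.94), and for Irs2, the least matched, Epb41l2 (0.91) and Ppp6r3 (0.89).

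Around the members, 93 other genes of the pathway were in the table, from 10 lists by role. With encorafenib 28 were higher and 12 lower in NaJa-D on day 1 and 25 and 10 on day 5. In NaJa-F 23 were higher and 9 lower on day 1 and 19 and 5 on day 5. In NaJa-G 46 were higher and 19 lower on day 1 and 34 and 15 on day 5. On day 1 this was 30.1% higher and 12.9% lower in NaJa-D, where 23.7% and 21.2% of all genes were called, 24.7% and 9.68% in NaJa-F, beside 17.5% and 12%, and 49.5% and 20.4% in NaJa-G, beside 35.3% and 28.7%. On day 5 it was 26.9% and 10.8% in NaJa-D, beside 18.3% and 14.7% of all genes, 20.4% and 5.38% in NaJa-F, beside 9.7% and 8.5%, and 36.6% and 16.1% in NaJa-G, beside 28.5% and 24.7%. Their median log2 fold change was 0.33 in NaJa-G on day 1 and 0.04 to 0.13 in the other 5 comparisons. The ligands Ins1 and Ins2, the binding protein Igfbp1 and the adaptor Irs4 were not listed in the table. The shares by role are shown in the plot of pathway lists.

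The ligand and binding protein list, with 8 genes, moved strongly in NaJa-G. Igfbp3, which binds insulin-like growth factors, fell in 5 of 6 comparisons and by 2.71 on the log2 scale in NaJa-G on day 1 (SE 0.06, limma adjusted p = 1.6e-24). Igf2 rose there by 1.58 ± 0.10 on day 1 and by 3.70 ± 0.16 on day 5 (limma adjusted p = 2.05e-14 and 1.55e-17), from group means of 7.44 to 22.4 CPM and of 2.59 to 34 CPM. Igf1 was called higher in 5 comparisons, at low levels of up to 5.18 CPM, and Igfbp7 in 5. Igfbp2 rose by 5.15 ± 0.43 in NaJa-G on day 5 (limma adjusted p = 3.05e-11), to a mean of 13.0 CPM. Its control mean there was near the floor, at 0.449 CPM with an SD of 0.423 over 2 libraries. In all, 5 genes of this list were higher and 1 lower in NaJa-G on day 5. This was 62.5% and 12.5%, beside 28.5% and 24.7% of all genes. In NaJa-D on day 1 none were higher and 1 was lower (12.5%), where 23.7% and 21.2% of all genes were called. The scavenger receptor Igf2r, which takes up IGF2, rose in all 6 comparisons, by 0.51 to 1.48.

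Among the adaptors Gab1, a docking protein that also recruits PI3K, rose in all 6 comparisons by 0.87 to 2.25 on the log2 scale, in NaJa-G on day 1 from a mean of 5.33 to 24.5 CPM (2.20 ± 0.07, limma adjusted p = 1.26e-20). Of the 12 inhibitors of the receptors and IRS proteins, 8 fell and 2 rose in NaJa-G on day 1. This was 66.7% and 16.7%, beside 28.7% and 35.3% of all genes. In NaJa-D on day 1, 6 fell and 2 rose (50% and 16.7%, beside 21.2% and 23.7%). Socs1 fell by 2.11 in NaJa-G on day 1 (SE 0.32, limma adjusted p = 1.06e-06), at a low level, and Enpp1 by 1.23 (SE 0.08, limma adjusted p = 3.91e-14). Grb10 rose by 3.11 there on day 5 (SE 0.44, limma adjusted p = 5.99e-07), but from a mean of 0.239 to only 1.91 CPM.

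Of the 9 further PI3K subunits, Pik3r3, a second regulatory subunit, and Pik3c2a, a class II kinase, rose in all 6 comparisons, by 0.25 to 1.39 and by 0.27 to 1.08. Pik3cd, which encodes p110δ, rose in NaJa-G by 2.05 ± 0.17 on day 1 and 1.49 ± 0.17 on day 5 (limma adjusted p = 1.17e-11 and 1.63e-08), from 0.700 to 2.92 CPM on day 1. Pik3cb, another catalytic subunit gene, was called higher in 3 of the 6 comparisons, with log2 fold changes from -0.05 to 0.62 over all 6. In NaJa-G on day 1 its mean went from 126 to 193 CPM. Of these 9 subunits in NaJa-G on day 1, 7 were higher and 1 lower (77.8% and 11.1%, beside 35.3% and 28.7% of all genes). Among the phosphatases Inpp5k rose in NaJa-D by 1.02 ± 0.12 on day 1 and in NaJa-G by 1.16 ± 0.10 (limma adjusted p = 6.76e-08 and 4.99e-11), and Inpp4b fell by 0.85 in NaJa-G on day 1 (SE 0.10, limma adjusted p = 2.16e-08). Of 11 genes for PDK1, AKT and AKT substrates, at most 5 were higher in any encorafenib comparison. This was in NaJa-G on day 1 (45.5%, beside 35.3% of all genes). Gsk3b rose there by 0.74 ± 0.08 (limma adjusted p = 2.21e-09). Of 14 genes of the mTOR complexes and the S6 kinase arm, 5 were higher and 4 lower in NaJa-G on day 1. These shares, 35.7% and 28.6%, were near those of all genes (35.3% and 28.7%). Rheb, the GTPase that activates mTORC1, rose in all 6 comparisons (0.25 to 0.46), and Rptor, an mTORC1 subunit, fell in all 6 (-0.36 to -0.23).

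With encorafenib the FOXO factors and their targets rose more often than they fell. Foxo6 rose in all 6 comparisons by 1.54 to 2.5 on the log2 scale, and in NaJa-G on day 1 from a mean of 1.17 to 6.57 CPM (limma adjusted p = 4.45e-09). Foxo4 rose in 5, by up to 0.64. Of 21 target genes in the table, 13 were higher and none lower in NaJa-G on day 1, 10 and 3 on day 5, 8 and 1 in NaJa-D on each day, 7 and 2 in NaJa-F on day 1 and 5 and none on day 5. The targets called higher were 61.9% in NaJa-G on day 1, beside 35.3% of all genes, and 47.6% on day 5, beside 28.5%. They were 38.1% in NaJa-D on each day, beside 23.7% and 18.3%, and in NaJa-F 33.3% and 23.8%, beside 17.5% and 9.7%. Their median log2 fold change in NaJa-G on day 1 was 0.56, against 0.04 for all genes. The targets also rose without the drug, from day 1 to day 5 in DMSO. There 52.4% were higher in NaJa-D, beside 13.7% of all genes, 42.9% in NaJa-F, beside 9.73%, and 52.4% in NaJa-G, beside 17.2%. In each line 4.76% of the targets were lower. Cat, which encodes catalase, rose in all 6 comparisons by 0.28 to 1.44. Among the day 1 changes of NaJa-G, Pdk4, a kinase that restrains pyruvate oxidation, rose by 2.36 ± 0.22 (limma adjusted p = 1.46e-10). Pdk4 was at a low level, with a mean log2 CPM of -0.05. It was called higher in 2 of the 6 comparisons and lower in none. Its log2 fold changes ran from -1.44 to 2.36 over all 6. Bcl2l11, which encodes the pro-apoptotic BIM, rose by 1.51 ± 0.07 in NaJa-G on day 1 (limma adjusted p = 7.44e-17). Bcl2l11 was called higher in 1 and lower in 1 of the 6 comparisons, with log2 fold changes from -0.31 to 1.51. Bnip3 was the largest change among the targets in NaJa-D on day 5 and fell by 0.79 (SE 0.09, limma adjusted p = 4.57e-08). Over the 6 comparisons Bnip3 was called higher in 2 and lower in 1. Many of these targets are also under other control, and the list was not tested as a set.

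**Figure D5:**
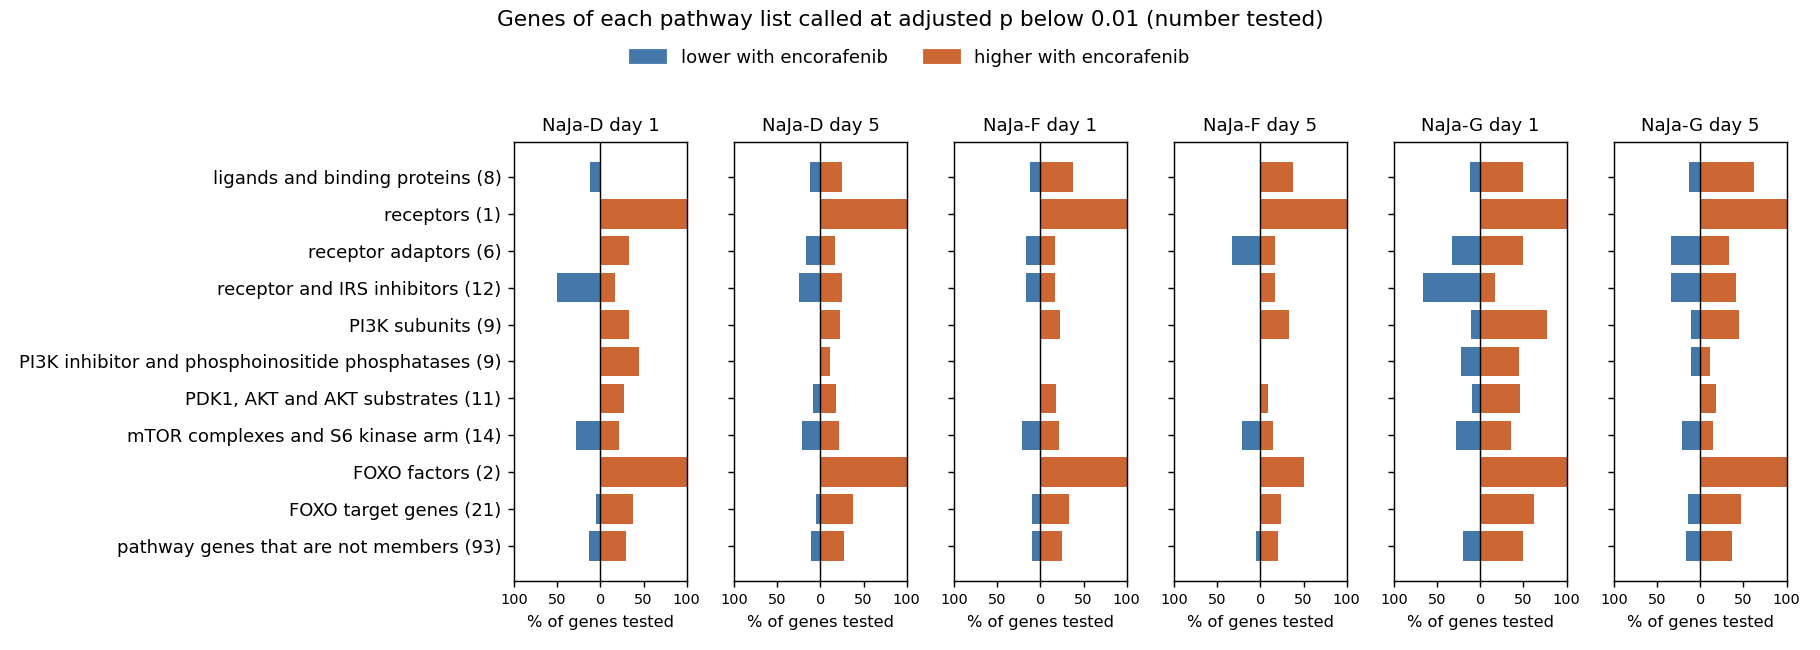
Share of the tested genes of each pathway list called higher (orange, right) or lower (blue, left) with encorafenib at an adjusted p below 0.01, in percent, for the 6 comparisons. The number of genes tested is given in brackets, and the 9 members are left out. The lists of 1 receptor and 2 FOXO factors can be called whole with very few genes, and PI3K subunits and FOXO targets are most often higher in NaJa-G on day 1.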

How the data were processed

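RNA was sequenced in 34 libraries from 3 mouse cell lines. Per the submitters' processing notes, reads were trimmed with Trimmomatic 0.39 and aligned with STAR 2.5.2b to GRCm38/mm10. The counter, its annotation and its strand setting are not given in the sources used here. The authors deposited whole-number read counts per Ensembl gene, and state a filter on summed counts above 2. Symbols were found for 14064 of 14107 identifiers. Counts were scaled by TMM and tested in 1 limma-voom fit (limma 3.58.1, edgeR 4.0.16, R 4.3.3) with 1 mean per group (12 groups) and no covariate. Genes were called at an adjusted p below 0.01 (Benjamini-Hochberg). FPKM used the union of annotated exons. The pipeline was tested on simulated data for 1 comparison, encorafenib in NaJa-D on day 1. There limma-voom recovered 79% of planted log2 changes of 1 and 62% of smaller planted changes, with 1 false call. Replicates of a group differed by 3.32 to 86.6 times the counting variance (32 pairs), so none was counted as a duplicate.

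The members and lists were chosen with earlier results of these data known. Besides the members, pathway genes are named when called in the same direction in all 6 encorafenib comparisons or among the 3 largest called changes of their list in a comparison. The 2 genes of most similar pattern are named for each member (Pearson r over group means, prior count 2). The alternatives were edgeR, DESeq2 1.42.0, RLE or library-size scaling, filterByExpr, only the groups compared, a replicate block, a threshold of 0.05 and each library left out.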

Additional observations from a re-analysis of the deposited data

Results flagged for a closer look

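The encorafenib response of the members differed between lines or days, by a limma-voom test of the difference itself (adjusted p below 0.01 over all genes), in 19 instances. Relative to NaJa-D, the day 1 response of NaJa-G was more positive by 0.68 for Irs1, 0.99 for Irs2, 0.75 for Pik3r1, 1.64 for Pik3ip1, 0.58 for Foxo1 and 0.78 for Foxo3, all as log2 differences. Against NaJa-F it was more positive in NaJa-G by 0.72 for Irs1, 0.93 for Irs2, 0.95 for Pik3r1, 1.59 for Pik3ip1, 0.36 for Foxo1 and 0.90 for Foxo3. On day 5 Pik3r1 alone remained called, at 0.43 between NaJa-G and NaJa-F.

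Between the days, the response of NaJa-G on day 5 minus that on day 1 was -0.62 for Irs1, -0.80 for Irs2, -0.94 for Pik3r1, -1.74 for Pik3ip1 and -0.73 for Foxo3. In NaJa-F it was -0.42 for Pik3r1. The NaJa-G values share their DMSO libraries with the change of the controls over time, which was 2.05 for Pik3ip1 and 0.84 for Irs2 on the log2 scale, and the 2 cannot be taken as separate observations. The summed fibroblast markers of the NaJa-G controls were 57.6 to 78.0 CPM on day 1 and 20.2 to 22.9 CPM on day 5, and their part in these differences was not tested.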

How the results depend on the processing

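Of 189 values of single members, 137 were followed through the alternatives, and the 52 left out were response differences that were not called, in comparisons with fewer than 5 members called. Of the 137, 78 were called. Of these 58 were called under every alternative, 20 lost the call at least once and 0 changed sign, while 13 values that were not called passed under at least one. The response differences of NaJa-G on day 1, apart from Foxo1 against NaJa-F, were among the 58. With edgeR, DESeq2, library-size scaling or the replicate block 1 member was called for the day 5 minus day 1 response in NaJa-D (main analysis 0), and 2 at a threshold of 0.05. Library-size scaling also gave 3 members for the DMSO time course of NaJa-D (main 1). A threshold of 0.05 gave 4 members for encorafenib in NaJa-D on day 1 (main 2), 5 in NaJa-G on day 5 (main 3), 2 for the NaJa-D time course and 2 for the response of NaJa-G minus NaJa-D on day 5 (main 0). Fitting only the groups compared gave 3 for NaJa-D on day 5 (main 5), and ended the calls of Foxo3 and Pik3ca in the NaJa-G time course (adjusted p = 0.0599 and 0.0631).

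Leaving out 1 library at a time, the member counts ranged from 2 to 4 for encorafenib in NaJa-D on day 1 and from 2 to 4 on day 5, from 0 to 1 in NaJa-F on day 5, from 0 to 3 for the DMSO time course of NaJa-D, from 2 to 4 for that of NaJa-F (main 6), and from 5 to 8 for NaJa-G against NaJa-F (main 8). They ranged from 0 to 1 for the response of NaJa-G minus NaJa-D on day 5 and for the day 5 minus day 1 response in NaJa-D and in NaJa-F. Because 2 groups had 2 libraries, leaving 1 out assumes that the lone library varies like the other groups. Values that changed sign were all uncalled. Igf1r in NaJa-G on day 5 was 0.0062 with DESeq2 and 0.012 with RLE scaling. With library-size scaling Foxo3 in NaJa-F was 0.028 relative to NaJa-D, and in the NaJa-D time course Igf1r was 0.0079, Irs1 0.12, Pik3ca 0.068, Pik3r1 0.17 and Foxo3 0.050. That scaling moved the median of all genes by 0.18 in that time course, by 0.12 in both comparisons with NaJa-D and by -0.13 in the day 1 response of NaJa-G minus NaJa-D. With 1 library left out, the encorafenib values ranged from -0.15 to 0.076 for Insr in NaJa-D on day 5, from -0.018 to 0.19 for Insr and from -0.15 to 0.14 for Igf1r in NaJa-G on day 5, and in NaJa-F on day 5 from -0.33 to 0.14 for Irs2, from -0.10 to 0.093 for Pik3ca and from -0.087 to 0.10 for Foxo3. In the NaJa-D time course they ranged from -0.17 to 0.023 for Irs1 and from -0.082 to 0.041 for Pik3r1. The day 1 response of NaJa-G minus NaJa-D ranged from -0.079 to 0.046 for Insr and from -0.081 to 0.093 for Igf1r, that minus NaJa-F from -0.092 to 0.035 for Igf1r, and the day 5 minus day 1 response of Pik3ca in NaJa-G from -0.024 to 0.18. The cause of these changes was not tested.

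Replicate numbers did not pair the libraries. The deviations of same-numbered libraries from their group means correlated at -0.27 to 0.21, and 3 of 24 pairs were over 0.1. With a replicate block Pik3ip1 passed in NaJa-D on day 1 (0.56, adjusted p = 0.00966), and so did Pik3r1 for the day 5 minus day 1 response in NaJa-D (-0.34, adjusted p = 0.00554, against 0.0104 without the block). The block changed no other call among the 189. The 0.5 µM dose and 2 days leave no dose response, and 2 or 3 libraries per group limit what small differences could be seen.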

Other observations

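Further genes around the members moved with encorafenib. Among the FOXO targets Erbb3, a receptor tyrosine kinase that recruits PI3K, was called higher in 4 of the 6 comparisons, by 1.09 ± 0.09 on the log2 scale in NaJa-G on day 5 (SE, limma adjusted p = 1.24e-11) and by 0.47 ± 0.07 in NaJa-F on day 5 (limma adjusted p = 1.15e-05). Sesn3 was also called higher in 4, with log2 fold changes from -0.11 to 1.34 over all 6. Klf2 rose by 1.73 ± 0.25 in NaJa-G on day 5 (limma adjusted p = 6.94e-07). Among the inhibitors Socs3 fell in 5 comparisons, with log2 fold changes from -0.81 to -0.32, while the phosphatase gene Ptprf was called higher in 4 and rose by 1.51 ± 0.10 in NaJa-G on day 1 (limma adjusted p = 3.37e-14). Of the mTOR list, Sgk1, a kinase related to AKT, was called higher in 5 and rose by 0.77 ± 0.05 in NaJa-D on day 5 (limma adjusted p = 1.3e-12). Deptor, an inhibitor of mTOR, was called lower in 4 and higher in 1, and fell by 1.07 in NaJa-D on day 5 (SE 0.09, limma adjusted p = 9e-11).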
